A study of Mus musculus with 12 samples.

Results

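The response of Lyz2cre bone marrow-derived macrophages to tumour necrosis factor (TNF) was measured in 6 libraries of total RNA, 3 from untreated cells and 3 from cells given TNF, out of 12 libraries in the series. Such macrophages differentiate in a dish from progenitors of the bone marrow. The cells of all 6 libraries came from Lyz2cre mice, in which the Cre recombinase sits in the gene for lysozyme 2 and is made in myeloid cells, and their Klf6 alleles were not floxed as far as the labels say. They were kept in DMEM with 10% fetal bovine serum, and the treated cells had 10 ng/ml TNF for 6 h. The other 6 libraries came from Klf6fl/fl:Lyz2cre macrophages, in which Cre can delete Klf6, in the same 2 conditions, and are used only where the responses are compared. The labels do not give the strain, sex or age of the mice, the length of culture of the untreated cells, or whether the 3 libraries of each group stem from different mice or cultures, so a p-value here reflects the spread of these samples alone, which may be technical. Members were the genes listed in both deposited tables, 19868 of 24465 listed in either. The question that the design poses for these cells is how TNF changes the transcripts of macrophages of the control genotype.

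TNF binds a pair of receptors on macrophages and, through adaptor proteins and kinases, frees NF-kB transcription factors from their inhibitors. NF-kB then drives transcription of chemokines, adhesion molecules, survival genes and its own inhibitors. In macrophages TNF also leads, with a delay, to a small amount of interferon beta, which acts back on the same cells through its receptor, Janus kinases and STAT factors to induce antiviral genes. Macrophages at rest clear dead cells, take up lipoproteins and recycle iron.

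TNF changed most transcripts that could be tested. The 6 libraries held 17.3 to 20.9 M reads on genes, and reads were recovered from the deposited values, scaled jointly and are called normalized counts, for an effective library of 19.0 M reads. Of 11913 genes with at least 1 CPM (a count scaled to library size) in at least 3 libraries, 4775 (40.1%) were called higher with TNF and 4508 (37.8%) lower (limma, Benjamini-Hochberg adjusted p below 0.05). At least 2-fold higher were 1564 (13.1%) and at least 2-fold lower 2125 (17.8%). The 3 libraries of the groups did not overlap for 9545 genes (80.1%), and 55 genes were at least 64-fold higher and 16 at least 64-fold lower. The median log2 change of all genes tested was 0.01. Scaled to total reads that median was -0.29, and the split became 3086 higher and 6367 lower (32.6% of the calls higher in place of 51.4%), so changes below about that size depend on the scaling. Changes are given as log2 of normalized count plus 1, TNF minus control, which understates the change of low genes. A gene below 1 CPM (19.0 normalized counts) in every library of 1 group passed the filter only through the 3 libraries of the other. Its direction was thus fixed by the filter, and the counts of rising or falling list members below include such genes.

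**Figure D1:**
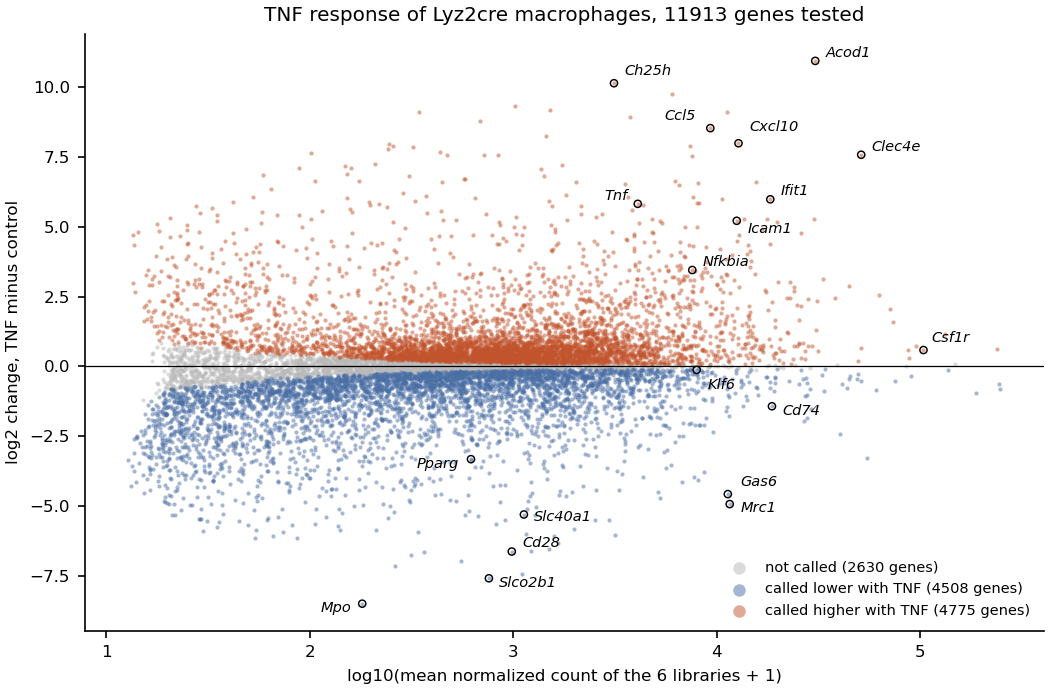
Log2 change with TNF (vertical axis) against the mean normalized count of the 6 libraries (horizontal axis, log10), 1 point per gene tested, coloured by call. Acod1, with a log2 change of 10.93, and Mpo, with no read after TNF, lie at the ends, and Csf1r and Klf6 lie near 0.

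All untreated libraries are in 1 deposited table and all TNF libraries in the other, so treatment cannot be told apart from anything else that differed between those sets of libraries. Untreated libraries had reads on 18332 to 18846 genes and TNF libraries on 17143 to 17573, and mitochondrial genes took 1.68 to 1.74% and 1.21 to 1.49% of the reads. The main axis of a principal component analysis held 94.1% of the variance and separated the groups, while the next held 2.10% and set TNF replicate 2 (-24.3) apart from TNF replicates 1 (7.57) and 3 (16.4). Means below are given ± SD over the 3 libraries of a group, control before TNF, and the labelled cell type had its markers in every library. Csf1r, Adgre1, Cd68, Mpeg1, Spi1 and Itgam had at least 2006 normalized counts in each of the 6 libraries. Lyz2 and Mertk, chosen as macrophage markers as well, are not among these. Lyz2 was below that level in every library and Mertk fell with TNF, as given further below.

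The 10 largest rises among named genes with at least 100 normalized counts were those of Acod1, Ch25h, Ifi205, Nos2, Cxcl3, Ptges, Cxcl11, Gpr84, Tarm1 and Ccl5. They cover enzymes of itaconate, oxysterol, nitric oxide and prostaglandin synthesis, chemokines, a DNA-sensor relative, a receptor for medium-chain fatty acids (Gpr84, 15.0 ± 5.98 to 7461 ± 319) and an activating receptor of the leukocyte receptor family (Tarm1, 2.16 ± 0.476 to 1378 ± 39.3). The 10 largest falls were those of Mpo, Slco2b1, Nxpe5, Etl4, Ltf, Hpgd, Cd28, Aatk, Clec10a and Ighm. Mpo and Ltf encode granule proteins of neutrophils and their progenitors and Ighm the heavy chain of IgM. Slco2b1, an organic anion transporter of resident macrophages, went from 1512 ± 55.1 to 7.29 ± 2.86 normalized counts. Cd28, best known as a co-stimulatory receptor of T cells, went from 1949 ± 54.5 to 19.3 ± 5.22, and Nxpe5 from 2202 ± 17.9 to 12.5 ± 4.74.

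**Figure D2:**
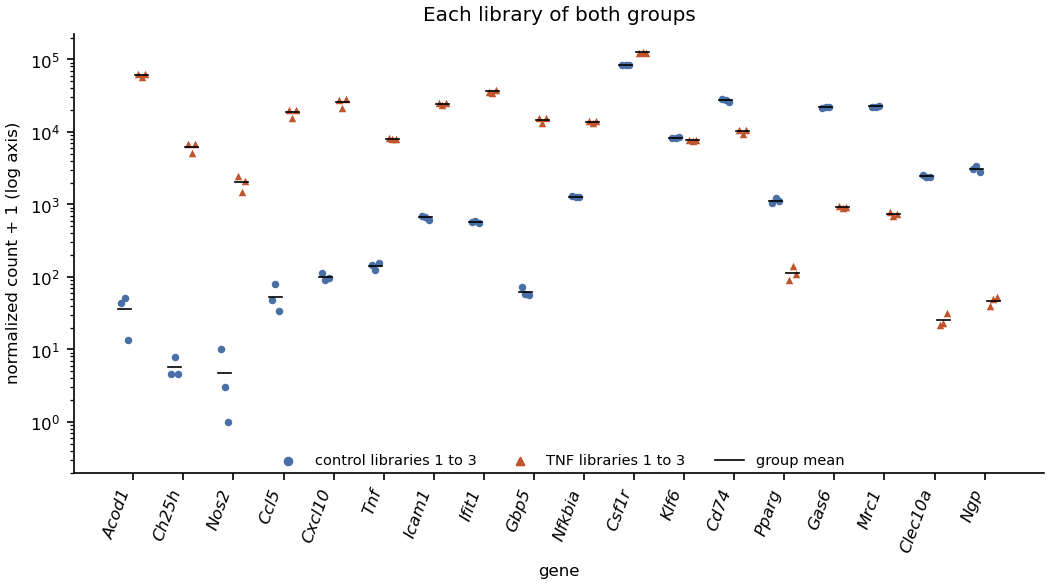
Normalized count plus 1 (vertical axis, log scale) of 18 genes in each of the 6 libraries, with circles for control, triangles for TNF and a bar at the group mean. The libraries of the groups do not overlap for any gene shown, as is so for 80.1% of all genes tested. The shift is smallest for Klf6, whose means are 8324 and 7646.

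Transcripts for TNF itself and for most proteins that carry its signal rose. Tnf (ENSMUSG00000024401, chromosome 17, 35199381 to 35202007, minus strand, GRCm38) was at 146, 126 and 155 normalized counts in control libraries 1 to 3 and at 8284, 7993 and 7880.5 in TNF libraries 1 to 3. Every treated library lay far above every control library. The rise was 56.4-fold, a log2 change of 5.82 (standard error 0.0702, limma, adjusted p = 1.32e-18). Of 24 genes listed for TNF, its receptors and proximal signalling, 23 were tested, of which 19 rose and 3 fell, 11 rose at least 2-fold and the median log2 change was 0.86. Scaled to total reads 16 rose and 3 fell, with a median of 0.55. Both receptor genes rose, with Tnfrsf1a, the receptor with a death domain, at 3424 ± 43.6 to 4877 ± 266 and Tnfrsf1b, the receptor without it, at 11968 ± 57.7 to 64804 ± 1243. Traf1, an adaptor of TNF receptors, had the next largest log2 change of the list after Tnf (5.27, 244 ± 24.5 to 9435 ± 452). Lta, encoding lymphotoxin alpha, a relative of TNF, rose from 2.63 ± 3.79 to 35.1 ± 7.33, and the adaptor gene Traf2 4.27-fold. Lta was below 1 CPM in every control library, so once tested it could only rise. The survival genes Birc3, a ubiquitin ligase of the receptor complex, and Cflar, an inhibitor of caspase activation, rose 6.35-fold and 9.30-fold. Map3k14, the kinase of the non-canonical NF-kB pathway, fell from 825 ± 37.8 to 436 ± 52.5.

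NF-kB subunits and their inhibitors rose nearly without exception. All 18 genes of that list were tested, 17 rose, 13 of them at least 2-fold, and the median log2 change was 2.04. Among subunits the precursor gene Nfkb2 rose 6.69-fold, Relb 5.85-fold, Nfkb1 4.48-fold, Rela 2.46-fold and Rel 1.60-fold. Nfkbia (ENSMUSG00000021025, chromosome 12, 55489410 to 55492647, minus strand, GRCm38), which encodes the inhibitor that holds NF-kB in the cytoplasm, was at 1289, 1275 and 1253 in control and 13953, 13436 and 14357 in TNF libraries. The groups were well apart and the libraries of each lay close together, with a log2 change of 3.45 (standard error 0.0393, limma, adjusted p = 8.39e-19). The largest change was that of another inhibitor of the family, Nfkbie, 21.9-fold from 427 ± 29.3 to 9377 ± 299.7. Tnfaip3, the ubiquitin-editing enzyme A20 that ends the signal, rose 12.3-fold and its binding partner Tnip1 8.35-fold. The 1 member that fell was Otulin, a deubiquitinase for linear chains, from 1213 ± 50.5 to 547 ± 9.79.

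Immediate early factors and signal brakes split. Of 17 tested AP-1 and immediate early genes 7 rose and 8 fell, with a median log2 change of -0.38. Of all genes tested 40.1% rose and 37.8% fell, so such a split is not particular to these factors. Junb rose 6.90-fold, Maff 6.75-fold and Fos 4.82-fold, while Egr1, an immediate early zinc finger factor, fell 4.39-fold and Jun, an AP-1 subunit, 2.50-fold. Of 13 phosphatase and mRNA decay genes 8 rose and 4 fell, with a median of 1.28. The MAP kinase phosphatase genes Dusp4 (333 ± 25.6 to 2828 ± 45.0) and Dusp1 (532 ± 79.1 to 3152 ± 75.1) rose, as did Zc3h12c, a relative of the mRNA-cleaving regnase, 6.33-fold. Zfp36l1, an RNA-binding protein that marks mRNA for decay, had the largest fall of that list, from 3731 ± 106 to 166 ± 22.1.

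Most chemokine genes rose, with large differences between members. Of 11 tested CC chemokine genes 7 rose and 1 fell (median 2.36), while Ccl2, Ccl4 and Ccl7 did not pass, and without TNF replicate 2 these counts were 10 and 1. Ccl12, Ccl22 and Ccl24 were below 1 CPM in every control library, so once tested they could only rise. Ccl5, which attracts T cells and monocytes (chromosome 11, 83525778 to 83530518, minus strand, GRCm38), was at 46.7, 77.7 and 32.4 in control and at 20369, 15489.5 and 19889.6 in TNF libraries. TNF replicate 2 was the lowest treated library, and the log2 change was 8.52 (standard error 0.205, limma, adjusted p = 3.36e-15). Ccl22 went from 4.42 ± 2.59 to 937 ± 89.7, and Ccl9 from 10624 ± 35.2 to 79001 ± 581. Ccl2, the main attractant of monocytes, was at 101, 68.8 and 74.8 in control and 109, 88.4 and 132 in TNF libraries. These groups overlapped and the difference did not pass the test (log2 change 0.43, standard error 0.196, limma, adjusted p = 0.0569). Over the alternatives its log2 change lay between 0.11 and 0.59, and it passed in 5 of 19, among them without TNF replicate 2 (0.58, limma, adjusted p = 0.0151). Ccl4 did not pass either (323 ± 12.7 to 348 ± 67.9) and passed without TNF replicate 2 (log2 change 0.26, limma, adjusted p = 0.0163), while Ccl6 fell 1.47-fold.

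Among 11 CXC and CX3C chemokine genes, all tested, 8 rose, each at least 2-fold, and 2 fell (median 3.52). Cxcl3, Cxcl9 and Cxcl11 were below 1 CPM in every control library, so once tested they could only rise. Cxcl5 was below 1 CPM in every TNF library and could only fall. Cxcl10, a ligand of Cxcr3 on T cells (chromosome 5, 92346638 to 92348889, minus strand, GRCm38), was at 113, 90.7 and 94.6 in control and 27219.99, 21116 and 28252 in TNF libraries. TNF replicate 2 was again the lowest treated library, and the log2 change was 7.98 (standard error 0.0966, limma, adjusted p = 1.33e-18). Cxcl11 is named for another ligand of that receptor but is annotated as a polymorphic pseudogene. Whether these mice make the protein is not given. Cxcl11 had 1 read over the 3 control libraries and 1906 over the 3 TNF libraries. The ratio was 2217, with an exact 95% counting interval of 397 to 87609. The neutrophil attractants Cxcl3 and Cxcl2 went from 4.66 ± 2.72 to 3017 ± 226 and from 97.5 ± 31.6 to 3570.2 ± 151. Cxcl12, a chemokine of marrow stroma, fell from 168 ± 34.4 to 12.6 ± 9.01 and Cxcl5 from 63.1 ± 20.5 to 10.1 ± 1.02. Stromal markers took 0.0202 to 0.0241% of the reads in control and 0.00461 to 0.00698% in TNF libraries, and their part in the fall of Cxcl12 was not tested.

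Cytokine genes rose in the main, while the counts of Il1b and Il6, encoding cytokines of fever and the acute phase, stayed low. Of 26 listed, 18 were tested, 14 rose and 3 fell (median 2.15). Il12b, Tnfsf15 and Vegfc were below 1 CPM in every control library, so once tested they could only rise. The death ligand Tnfsf10 rose 60.0-fold (48.4 ± 8.46 to 2954 ± 429), Il1rn, the antagonist of Il1b at its receptor, 27.0-fold (280.4 ± 46.0 to 7545 ± 573), and Il27 20.5-fold. Il1b reached only 84.7, 104 and 132 normalized counts in the TNF libraries, from 21.6, 22.9 and 27.9, and its groups did not overlap (log2 change 2.09, limma, adjusted p = 7.28e-07). Il6 was below the filter, with 2, 0 and 2 reads in control and 17, 9 and 13 in TNF libraries. Il12b, a subunit of T cell-polarizing interleukins, had 2 reads in control and 106 in TNF libraries, a ratio of 61.6 with an exact counting interval of 16.6 to 516. Osm, encoding oncostatin M, fell 7.90-fold and Vegfa, the vascular growth factor, 1.95-fold.

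Most adhesion and co-stimulatory genes rose. Of 16 tested 12 rose and 4 fell (median 2.50), against 10 and 5 when scaled to total reads. Icam1, the ligand of leukocyte integrins, was at 685, 679.5 and 616 in control and at 25182, 23399 and 24812 in TNF libraries, with no overlap and a 37.0-fold change (log2 5.21, standard error 0.0475, limma, adjusted p = 1.40e-19). Itgal, a chain of the integrin that binds Icam1, rose 31.9-fold from 487 ± 18.6 to 15578 ± 895, and Vcam1, the ligand of another integrin, 27.5-fold from 343 ± 14.8 to 9449 ± 602. The co-stimulatory receptor Cd40 went from 232 ± 14.2 to 8125 ± 655. Cd80, a co-stimulatory ligand of Cd28, was also among the 4 that fell. Cd83, a maturation marker of dendritic cells, fell 2.75-fold and the integrin chain Itgam 2.11-fold.

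Most genes of the interferon beta loop rose, while the counts of its ligand stayed low. Ifnb1 had 0 reads in the 3 control libraries and 74 in the 3 TNF libraries, 24.5, 26.6 and 29.3 normalized counts, at least 28.7-fold higher (against a floor of 3 reads over the control group). Of 21 genes of the loop 18 rose and 2 fell (median 1.76, also with Ifnb1 at that bound), against 16 and 4 when scaled to total reads. With no control read, Ifnb1 could, once tested, only rise. The kinase gene Jak2 rose 12.1-fold and Irf7, the factor that amplifies the loop, from 1674 ± 152 to 35108 ± 4775. The negative regulators Usp18 and Socs3 rose 27.9-fold and 20.3-fold. Irf8, a factor of the monocyte lineage, fell 5.89-fold, from 5994 ± 69.4 to 1017 ± 64.9.

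Each of the 32 tested interferon-stimulated antiviral genes (33 listed) rose at least 2-fold, with a median log2 change of 3.66 and a range from 1.22 to 5.98. Ifit1, which binds viral RNA (chromosome 19, 34640871 to 34650009, plus strand, GRCm38), was at 576, 588 and 553 in control and 36039, 34824 and 37622 in TNF libraries. The groups were far apart, and the log2 change was 5.98 (standard error 0.0416, limma, adjusted p = 9.36e-21). The ubiquitin-like modifier Isg15 rose 57.7-fold, from 269 ± 22.9 to 15723 ± 2727, Ifit3b 54.6-fold and Ifit2 38.6-fold. Of the guanylate-binding proteins and immunity-related GTPases, which attack the vacuoles of intracellular microbes, 17 were listed and 14 tested, and those 14 rose at least 2-fold with a median of 5.19. Gbp5 was at 71.9, 57.8 and 55.9 in control and 15669.9, 13093 and 15674 in TNF libraries, 236-fold higher without overlap (limma, adjusted p = 8.77e-19). Gbp6 rose 149-fold, Gbp4 104-fold, Gbp2 97.2-fold and Irgm1 8.84-fold. The Ifi200 family of DNA sensors, a list chosen after the data were seen, had 10 of 11 tested members higher, at a median of 3.97, with Ifi205 going from 14.1 ± 5.98 to 12020.2 ± 156. Members of these families resemble each other, and how the counting shared reads between copies is not known, so values of single members are uncertain.

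TNF replicate 2 was the lowest of the 3 treated libraries for 30 of the 32 antiviral genes, for 14 of the 14 GTPases, for 10 of the 11 Ifi200 genes and for 11 of the 11 CC chemokines. Over all genes tested it was the lowest for 35.3%. Without that library the antiviral list had 32 higher genes at a median of 3.72 and the GTPases 14 at a median of 5.31.

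**Figure D3:**
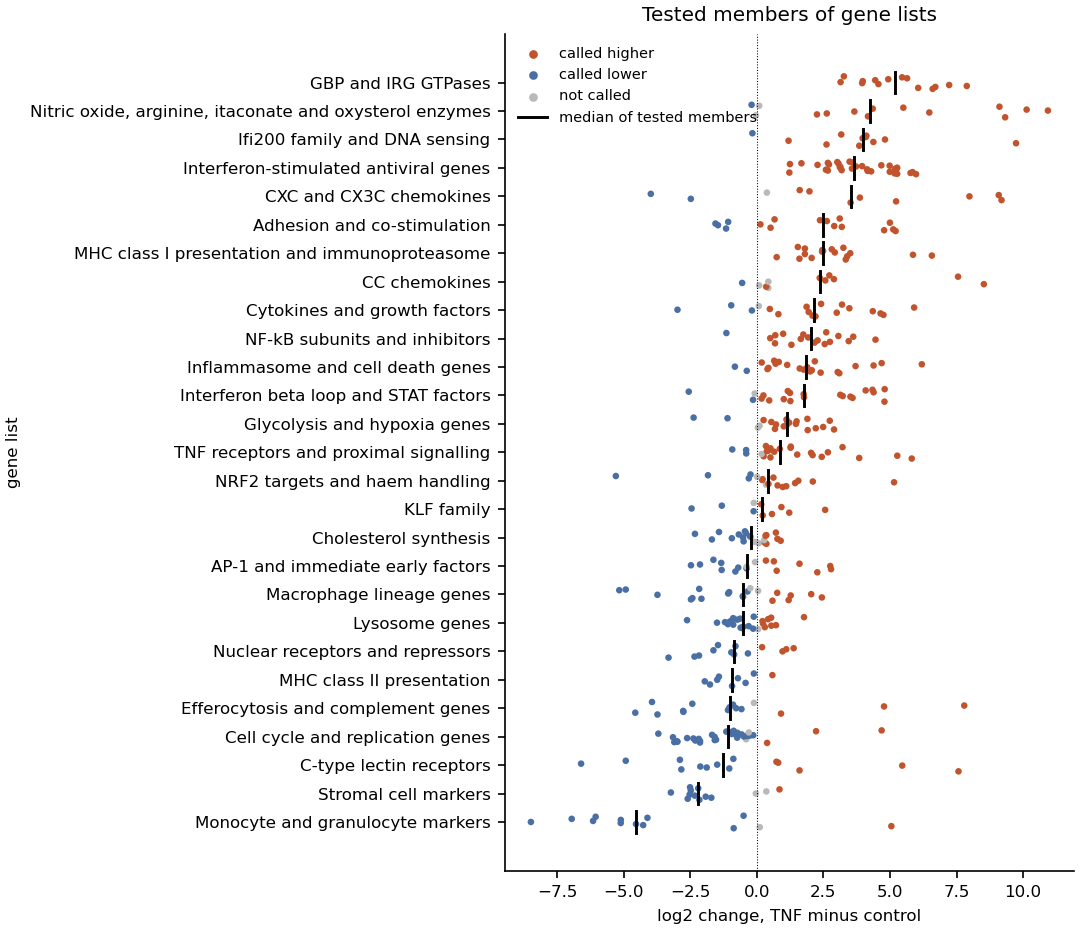
Log2 change with TNF (horizontal axis) of the tested members of 27 gene lists (vertical axis), coloured by call, with a bar at each list's median. The medians run from 5.19 for the guanylate-binding and immunity-related GTPases to -4.54 for monocyte and granulocyte markers, beside 0.01 for all genes tested.

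The promoters of some of these genes are shown because, among genes that rose, they hold the letters of the NF-kB motif, of the motif of interferon-activated factors, or of both. The letters searched were GGGNNNTTCC for NF-kB and GAAANNGAAA for the interferon-stimulated response element (ISRE), on both strands. The window was the 250 bases before RefSeq's gene start, and a gene with several listed starts has several windows. NF-kB and ISRE letters do not overlap in the promoters shown. Sequences are those of RefSeq in GRCm38.p6, read 5' to 3' in the direction of the gene, with matches in capitals. A match on the other strand reads as the reverse complement.
Nfkbia, chr12:55492648-55492897, minus strand: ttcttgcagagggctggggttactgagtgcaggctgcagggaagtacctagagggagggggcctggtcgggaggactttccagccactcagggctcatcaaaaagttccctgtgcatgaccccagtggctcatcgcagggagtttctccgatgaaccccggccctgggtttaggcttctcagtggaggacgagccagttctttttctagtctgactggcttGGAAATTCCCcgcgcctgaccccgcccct
Cxcl3, chr5:90785851-90786100, plus strand: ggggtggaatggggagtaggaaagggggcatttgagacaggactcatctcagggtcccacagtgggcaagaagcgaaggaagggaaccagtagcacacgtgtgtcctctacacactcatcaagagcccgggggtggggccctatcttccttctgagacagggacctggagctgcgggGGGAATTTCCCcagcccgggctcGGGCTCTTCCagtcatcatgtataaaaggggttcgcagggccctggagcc
Ifit1, chr19:34640639-34640888, plus strand: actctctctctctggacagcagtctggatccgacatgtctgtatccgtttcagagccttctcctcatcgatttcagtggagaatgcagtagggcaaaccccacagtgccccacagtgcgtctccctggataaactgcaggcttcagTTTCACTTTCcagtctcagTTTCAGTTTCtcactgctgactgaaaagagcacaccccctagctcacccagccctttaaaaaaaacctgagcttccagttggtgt
Gbp2, chr3:142620413-142620662, plus strand: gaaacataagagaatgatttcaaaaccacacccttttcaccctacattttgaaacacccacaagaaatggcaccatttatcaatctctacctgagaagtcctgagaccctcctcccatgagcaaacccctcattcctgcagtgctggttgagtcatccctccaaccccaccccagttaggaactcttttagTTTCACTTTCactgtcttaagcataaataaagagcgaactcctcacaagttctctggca
Cxcl10, chr5:92348890-92349139, minus strand: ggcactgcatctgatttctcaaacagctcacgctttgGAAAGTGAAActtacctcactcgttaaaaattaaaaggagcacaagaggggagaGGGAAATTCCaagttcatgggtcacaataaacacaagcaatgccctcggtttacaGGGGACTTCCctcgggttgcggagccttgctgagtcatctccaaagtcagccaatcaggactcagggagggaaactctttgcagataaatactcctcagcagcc
Gbp5, chr3:142496684-142496933, plus strand: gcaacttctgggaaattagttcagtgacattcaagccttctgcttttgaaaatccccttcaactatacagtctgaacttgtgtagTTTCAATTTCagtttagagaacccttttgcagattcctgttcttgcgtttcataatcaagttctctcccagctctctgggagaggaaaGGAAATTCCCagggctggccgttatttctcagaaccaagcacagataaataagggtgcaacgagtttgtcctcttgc
Counted back from the gene start, the NF-kB letters begin at -29 in Nfkbia and at -73 and -50 in Cxcl3, where those at -73 overlap a match on the other strand at -72. Ifit1 holds ISRE letters at -104 and -85 and Gbp2 at -59. Cxcl10 holds ISRE letters at -213 and NF-kB letters at -159 and -104, and Gbp5 ISRE letters at -165 and NF-kB letters at -77. RefSeq starts can differ from GENCODE's. GENCODE's Gbp5 spans 142493978 to 142522344 on chromosome 3, so the whole Gbp5 window lies inside that gene. GENCODE's Gbp2 starts at 142620602, so the Gbp2 letters at -59 lie inside that gene as well.

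Over all 27025 genes of the promoter table, 5.31% held the NF-kB letters and 3.46% the ISRE letters in such windows, and over the 9132 genes tested that had a promoter listed, 6.27% and 3.58%. Of the 15 NF-kB subunit and inhibitor genes whose promoter was listed, 8 (53.3%) held the NF-kB letters and 0 the ISRE letters. Of 26 antiviral genes 11 (42.3%) held the ISRE letters and 7 (26.9%) the NF-kB letters. Of 10 GTPase genes 10 held the ISRE letters and 1, Gbp5, the NF-kB letters. Among 1163 matched genes called at least 2-fold higher, 8.77% held the NF-kB letters and 8.17% the ISRE letters, and among 1553 called at least 2-fold lower 5.54% and 3.22%. At 16-fold the NF-kB letters were more frequent among the lower genes (11.5% of 131) than among the higher genes (8.18% of 159), while the ISRE letters were in 1.53% and 17.6%. These are counts of letters before RefSeq starts. Genes with several listed starts, such as Nfkb2, have several windows and so more room for a match, and the part of this in the shares was not tested. Near matches, such as tggaaattcc in the Icam1 window, were not counted. Genes without the letters, such as Icam1, Birc3 and Traf1, are not shown to lack a site, in the window or elsewhere.

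Genes for presentation on MHC class I and class II moved in opposite directions. All 17 class I and immunoproteasome genes listed were tested and rose, 16 of them at least 2-fold, with a median log2 change of 2.48. Nlrc5, the transactivator of class I genes, rose 10.1-fold from 864 ± 28.9 to 8772 ± 886, and the peptide transporter Tap1 11.4-fold. The non-classical genes H2-Q6 (167 ± 11.0 to 16006 ± 1169.9) and H2-Q7 (274 ± 11.1 to 16046 ± 1648) had the largest changes, and as near-identical copies they can share reads. Of 9 class II genes 8 fell and 1 rose (median -0.93), and without TNF replicate 2 there were 7 lower. Cd74, the invariant chain of class II, was at 28488, 27328 and 25986 in control and at 10477, 9285 and 10735 in TNF libraries, 2.69-fold lower with no overlap (limma, adjusted p = 4.21e-13). The chains H2-Eb1 and H2-Aa fell 3.88-fold and 3.39-fold and Ciita, the class II transactivator, 1.91-fold. The member that rose was the protease gene Ctss, from 69879 ± 1252 to 104661 ± 1439.

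Enzymes that make itaconate, oxysterols, nitric oxide and prostaglandins gave 4 of the 10 largest rises named above. Of 14 tested genes of that list 11 rose, each at least 2-fold, and 1 fell, with a median of 4.26. Ch25h and Nos2 were below 1 CPM in every control library, so once tested they could only rise. Acod1 (ENSMUSG00000022126, chromosome 14, 103046977 to 103056573, plus strand, GRCm38), whose enzyme makes itaconate, was at 42.2, 50.8 and 12.6 in control and at 62499, 57256 and 63425 in TNF libraries. The lowest treated library was at 57256 and the highest control library at 50.8, and the groups gave a log2 change of 10.93 (standard error 0.320, limma, adjusted p = 3.85e-14). Ch25h, whose enzyme hydroxylates cholesterol, was at 3.59, 6.97 and 3.60 and 6775, 5089 and 6910.3, with TNF replicate 2 lowest, and its log2 change was 10.13 (standard error 0.192, limma, adjusted p = 1.76e-16). Nos2, the inducible nitric oxide synthase, was at 8.99, 1.99 and 0 and 2474, 1508 and 2112, also without overlap (log2 change 9.33, standard error 0.539, limma, adjusted p = 2.26e-10). Slc7a2, the transporter that brings in its substrate arginine, rose 89.1-fold. Arg1, which breaks arginine down, rose 4.78-fold but only to 116 ± 13.2 from 23.5 ± 3.16.

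Prostaglandin genes moved in both directions. Ptges, the terminal synthase of prostaglandin E, went from 40.1 ± 5.38 to 22591 ± 479 and Ptgs2, the inducible cyclooxygenase, from 15.9 ± 5.81 to 733 ± 18.6. In a list of prostaglandin and leukotriene genes chosen after the data were seen, 5 of 16 tested members rose and 10 fell, each of the 10 at least 2-fold. Of all genes tested 40.1% rose and 37.8% fell. Ptgs1, the constitutive cyclooxygenase, fell 15.0-fold, Hpgds, a synthase of prostaglandin D, 21.4-fold and Hpgd, whose enzyme inactivates prostaglandins, 108-fold. Alox5, the entry enzyme of leukotriene synthesis, had 233 reads in control and 3 in TNF libraries, a ratio of 66.8 with an exact counting interval of 22.6 to 326.

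Most cell death and pattern recognition genes rose. Of 22 inflammasome and cell death genes 20 rose, 14 at least 2-fold, and 2 fell (median 1.83). Scaled to total reads 17 rose and 3 fell. The anti-apoptotic relatives Bcl2a1a and Bcl2a1d rose 73.3-fold and 25.7-fold, values that are uncertain between near-identical copies. The death receptor Fas rose 20.9-fold, the necroptosis effector Mlkl 13.1-fold and the inflammasome sensor Nlrp3 8.56-fold, while the necroptosis kinase Ripk3 fell 1.77-fold. Of 15 tested Toll-like receptor genes and adaptors 10 rose and 5 fell (median 0.98), against 8 and 6 when scaled to total reads. Among all genes tested 40.1% rose and 37.8% fell. Tlr2, a sensor of lipoproteins, went from 1616 ± 77.4 to 26538 ± 326, Tlr3, a sensor of double-stranded RNA, rose 9.84-fold, and the adaptors Myd88 and Irak2 rose 5.35-fold and 5.10-fold. Tlr9, a sensor of DNA, fell 4.34-fold and Tlr13, a sensor of bacterial ribosomal RNA, 4.24-fold.

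C-type lectin receptors, a list chosen after the data were seen, had 5 higher and 9 lower of 14 tested. Of all genes tested 40.1% were higher and 37.8% lower, so moving in both directions is not particular to this list. Clec4e, encoding the mycobacterial glycolipid receptor Mincle, was at 549, 542 and 517 in control and at 100145, 105466 and 101088 in TNF libraries, 190.4-fold higher (standard error 0.0380 on the log2 scale, limma, adjusted p = 1.56e-22). Clec5a rose 44.0-fold. Clec10a, a galactose-binding lectin of alternatively activated macrophages, fell 97.2-fold, from 2435 ± 84.0 to 24.4 ± 5.31. Cybb, the catalytic subunit of the phagocyte oxidase, rose from 18401 ± 139 to 107205 ± 3268.

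Several receptors of resident and alternatively activated macrophages fell while lineage factors and the colony-stimulating factor receptor did not follow a common direction. Of 20 tested macrophage lineage genes 6 rose and 12 fell, 9 of them at least 2-fold (median -0.52). The shares over all genes tested were 40.1% higher and 37.8% lower. Mrc1, the mannose receptor (chromosome 2, 14229392 to 14332057, plus strand, GRCm38), was at 22257, 22415 and 22725 in control and at 797, 684 and 739.6 in TNF libraries, 30.4-fold lower and without overlap (log2 -4.92, standard error 0.0494, limma, adjusted p = 2.50e-19). Cd163, the scavenger receptor for haemoglobin, fell 36.0-fold and Mertk, a receptor for apoptotic cells, 13.3-fold. Csf1r, the receptor on which macrophage survival depends, was at 83439.8, 82796 and 83208 and 123976, 125813 and 124618, a rise of 1.50-fold (log2 0.59, limma, adjusted p = 1.36e-10). The lineage factors Spi1 and Cebpb rose 2.29-fold and 5.43-fold. The pan-macrophage markers Adgre1, Cd68 and Mpeg1 fell 1.43-fold, 1.44-fold and 1.28-fold. Lyz2, the gene that carries Cre, rose from 704 ± 22.7 to 1700.02 ± 42.6, and it can share reads with its near-identical neighbour Lyz1.

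Most genes for the clearance of dead cells fell, while C3 and Cfb of the alternative complement pathway rose. Of 15 tested efferocytosis and complement genes 3 rose and 11 fell (median -1.03). Gas6, which bridges apoptotic cells to Mertk, was at 21579.8, 21843 and 21964 in control and 951, 892 and 913 in TNF libraries, 23.7-fold lower without overlap (limma, adjusted p = 6.31e-20). Cd93 fell 15.3-fold, and the chains of the complement starter C1q, C1qa, C1qb and C1qc, fell 1.49-fold, 1.72-fold and 2.04-fold. C3, the central complement protein, rose from 1834 ± 31.5 to 50442 ± 4699.5 and Cfb, its alternative-pathway partner, from 1.50 ± 1.38 to 485 ± 75.5. Among 15 tested chemoattractant receptors 7 rose and 8 fell (median -0.44), beside 40.1% and 37.8% of all genes tested. The formyl peptide receptor Fpr2 rose 24.2-fold and the chemerin-binding receptor Ccrl2 21.8-fold, while Ccr2, the receptor for Ccl2, fell 3.12-fold and the purine receptor P2ry12 6.23-fold.

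Lipid genes did not move as a block. Of 12 tested genes of cholesterol efflux and LXR targets 6 rose and 6 fell (median -0.08), against 3 and 6 when scaled to total reads. Over all genes tested 40.1% rose and 37.8% fell. Nr1h3, the LXR alpha gene, rose 11.8-fold from 294 ± 12.5 to 3471 ± 294 and the cholesterol exporter Abca1 1.61-fold, while Apoe fell 1.75-fold and the desaturase Scd2 6.72-fold. The partners of lysosomal cholesterol export parted, Npc2 rising 2.46-fold and Npc1 falling 2.10-fold. Of 21 tested cholesterol synthesis genes 7 rose and 10 fell (median -0.23), against 3 and 13 when scaled to total reads. Dhcr7 (5.01-fold), Insig1 (2.68-fold) and Sqle (1.92-fold) fell. Of 14 scavenger and lipid uptake genes 3 rose and 10 fell (median -0.92). The 3 were Olr1, a receptor for oxidized low-density lipoprotein (8.53 ± 4.03 to 1676 ± 137), Acsl1, which activates long-chain fatty acids (1072 ± 43.0 to 32246 ± 476), and the scavenger receptor Msr1 (2108 ± 98.3 to 14809 ± 230.2), while Cd36 fell 2.32-fold.

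Among nuclear receptors and repressors 4 of 13 tested rose and 9 fell (median -0.85), beside 40.1% and 37.8% of all genes tested. Pparg, a lipid-sensing receptor of alternatively activated macrophages, was at 1037, 1235 and 1106 in control and at 88.8, 143 and 110.00 in TNF libraries, 9.97-fold lower with no overlap (limma, adjusted p = 2.74e-12). Ppard fell 5.07-fold and Rxra, the partner of these receptors, 4.51-fold. The repressor Bcl6 rose 2.60-fold.

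Lysosomal, iron and metabolic genes are given in turn. Of 26 lysosome genes 8 rose and 17 fell (median -0.53), against 5 and 18 when scaled to total reads, with the proton pump subunit Atp6v0d2 6.16-fold, the hydrolases Galc 2.82-fold and Gusb 2.29-fold lower and the transcription factor Mitf 3.41-fold higher. Lamp1, an abundant lysosomal membrane protein, did not pass the test (38478 ± 885 to 39714 ± 239, log2 change 0.05), and it was lower when scaled to total reads (-0.26). Of 17 NRF2 target and haem genes 11 rose and 4 fell (median 0.43), against 8 and 5 when scaled to total reads. Slc40a1, the iron exporter ferroportin, was at 2153, 2321 and 2134 in control and 50.0, 61.8 and 53.8 in TNF libraries, 39.3-fold lower (limma, adjusted p = 9.53e-17), and Tfrc, which takes iron up, fell 3.57-fold. Slc7a11, the cystine importer, rose 35.6-fold, Txnrd1 4.29-fold and Hmox1, the haem-degrading oxygenase, 1.71-fold. Of 21 tested glycolysis and hypoxia genes 17 rose and 2 fell (median 1.12). The glucose transporter Slc2a1 rose 7.46-fold, the lactate exporter Slc16a3 6.67-fold, Pfkl 5.62-fold and Hif1a, the hypoxia factor, 3.75-fold, while Ndrg1, a gene induced by hypoxia, fell 5.19-fold.

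Klf6, the gene floxed in the other genotype, changed little in these cells. It was at 8258, 8217 and 8496 in control and at 7818, 7401 and 7720.2 in TNF libraries (ENSMUSG00000000078, chromosome 13, 5861482 to 5870394, plus strand, GRCm38). The treated libraries all lay below the control libraries, by 1.09-fold (log2 change -0.12, standard error 0.0363, limma, adjusted p = 0.00619), and the log2 change was -0.43 when scaled to total reads. Of 10 tested genes of the Krüppel-like factor family 6 rose and 3 fell, and the median was 0.19, beside 40.1% higher and 37.8% lower of all genes tested. Scaled to total reads the family had 4 higher, 5 lower and a median of -0.12. Klf7 rose 5.91-fold, Klf4 2.32-fold and Klf10 1.89-fold, and Klf9 and Klf11 fell 5.48-fold and 2.49-fold. Klf2, which restrains NF-kB activity in macrophages, was called higher at 651 ± 33.5 to 758 ± 41.8 (log2 change 0.22, limma, adjusted p = 0.00832). Its sign turned when scaled to total reads (-0.09) and the call was lost without control replicate 3 (limma, adjusted p = 0.0502) or TNF replicate 3 (limma, adjusted p = 0.0516).

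Most cell cycle genes fell. Of 32 tested 27 fell, 17 of them at least 2-fold, and 3 rose (median -1.09). Rrm2, a subunit of the enzyme that makes deoxynucleotides, fell from 194 ± 29.7 to 14.3 ± 4.43, Birc5, encoding survivin, from 79.6 ± 17.8 to 9.29 ± 6.05 and the cyclin gene Ccna2 from 111 ± 9.70 to 12.3 ± 3.44. Cdkn1a, the cyclin-dependent kinase inhibitor p21, was at 926, 942 and 1017 in control and 26091, 23076 and 25225 in TNF libraries, 25.8-fold higher without overlap (limma, adjusted p = 4.60e-19), and the cyclin gene Ccnd2 rose 4.67-fold. Of 25 ribosomal protein genes 17 fell, none by 2-fold, and 2 rose (median -0.19), against 24 and 0 when scaled to total reads, and Rpl3 fell most, 1.77-fold. Of 12 tested mitochondrially encoded genes 5 rose and 5 fell (median -0.01), against 4 and 7 when scaled to total reads. That split is close to the 40.1% higher and 37.8% lower of all genes tested. The most changed of the 12, mt-Atp6, was at 147, 126 and 282 in control and 352, 478 and 398 in TNF libraries. TNF replicate 1 was the lowest treated library for all 12.

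Most markers of other cells that a marrow culture can hold fell in the TNF libraries. These are bulk samples, so fewer cells of a type and less RNA per cell cannot be told apart. Monocyte and granulocyte markers took 0.0665 to 0.0722% of the reads in control and 0.0159 to 0.0179% in TNF libraries, and of 13 tested 11 fell and 1 rose (median -4.54). Mpo, the peroxidase of granule precursors, had 1160 reads over the 3 control libraries and 0 over the 3 TNF libraries, at least 332-fold lower (against a floor of 3 reads over the TNF group). Ngp, a neutrophil granule protein, was at 3131, 3372 and 2845 in control and 38.8, 47.9 and 51.5 in TNF libraries, 66.5-fold lower (limma, adjusted p = 7.53e-17). Ltf fell from 1098 ± 49.6 to 8.02 ± 2.21, Prtn3 from 169 ± 5.68 to 1.80 ± 1.60 and S100a9 from 2375 ± 121 to 101 ± 4.79. Mpo, Ltf and Prtn3 stayed below 1 CPM in every TNF library, so once tested they could only fall. The member that rose was Vcan, a matrix proteoglycan of monocytes, from 50.1 ± 12.5 to 1664 ± 157.

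Stromal markers fell as well, to the shares given beside Cxcl12. Of 18 listed 13 were tested, of which 10 fell, each at least 2-fold, and 1 rose (median -2.20), with Pdgfra going from 110.2 ± 21.1 to 10.8 ± 2.01 and Col1a2 from 653 ± 54.1 to 111 ± 37.9. Of 14 B, T and NK cell markers only 2 passed the filter, and both fell, Cd79b (28.3 ± 1.47 to 1.56 ± 2.70) and Cd4 (154 ± 10.3 to 19.9 ± 6.27). Cd79b, like Pdgfra, stayed below 1 CPM in every TNF library and passed through the control libraries alone. Once tested, both could only fall. Ms4a1, Cd3e and Trac had 0 to 16 reads in each library. Of 10 dendritic and mast cell markers only Kit was tested, and it fell (53.4 ± 1.79 to 5.21 ± 5.27). Kit too passed the filter through the control libraries alone and could only fall. Of 5 tested endothelial markers Flt1 and Kdr rose (19.8-fold and 6.42-fold) and Pecam1 fell (9.76-fold). Endothelial markers took 0.00400 to 0.00461% of the reads in control and 0.0113 to 0.0134% in TNF libraries, and their median of 0.27, with 2 higher and 1 lower, became -0.03, with 2 and 2, when scaled to total reads. Immunoglobulin genes, a list chosen after the data were seen, took 0.0278 to 0.0319% and 0.00251 to 0.00268% of the reads, with Ighm going from 2984 ± 95.9 to 33.6 ± 15.6 and Igkc from 1528 ± 168 to 376 ± 22.4. Kidney tubule genes, also chosen after the data were seen, took at most 3.17e-05% in control and 0.000532 to 0.00117% in TNF libraries, and adipocyte genes 2.11e-05 to 0.00117% in control and at most 1.65e-05% in TNF libraries, with no gene of either list past the filter. Each of these falls was in the same libraries as those of the cell cycle, efferocytosis and lysosome genes, and their part in those results was not tested.

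**Figure D4:**
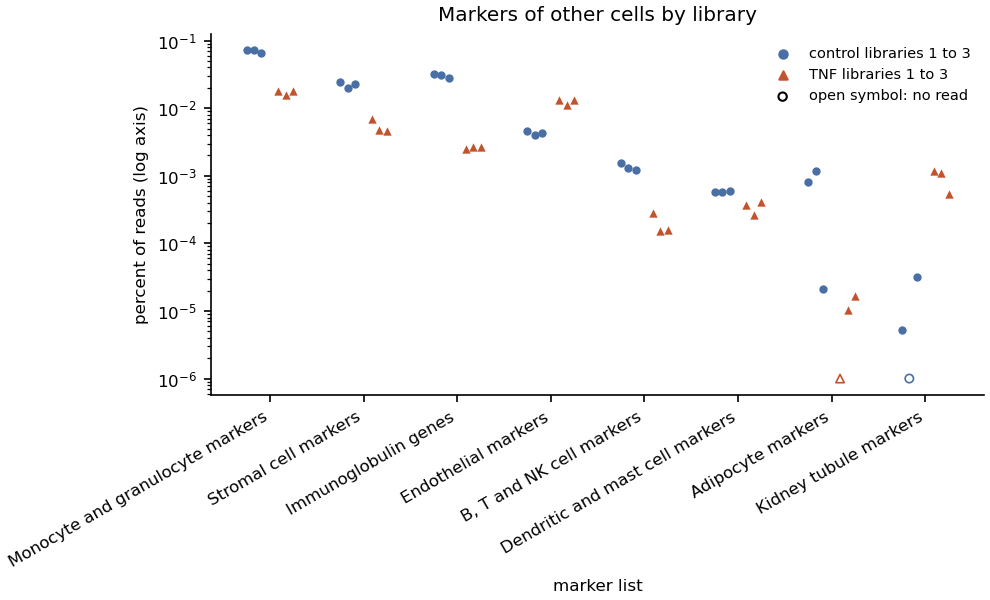
Share of reads (vertical axis, percent, log scale) taken by 8 marker lists in each of the 6 libraries, with circles for control, triangles for TNF and open symbols where a library had no read. Granulocyte and stromal markers and immunoglobulin genes are lower in every TNF library, and kidney tubule genes are higher in every TNF library.

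The response to TNF differed from that of Klf6fl/fl:Lyz2cre macrophages for 6368 of 12982 genes tested over the 12 libraries (49.1%, limma, adjusted p below 0.05), 3557 with a more positive and 2811 with a more negative response in Lyz2cre cells. Scaled to total reads these were 2197 and 4927. Every tested gene of the antiviral and GTPase lists differed. All 32 antiviral genes had a more positive response in Lyz2cre cells, at a median log2 change of 3.68 against 0.49, and so had all 15 guanylate-binding and immunity-related GTPases tested there, at 4.95 against -0.29. The untreated libraries of the genotypes did not overlap either, and this was not tested. The GTPase genes took 0.0241 to 0.0246% of the reads in untreated Lyz2cre and 0.0682 to 0.0911% in untreated Klf6fl/fl:Lyz2cre libraries, and 0.512 to 0.595% and 0.0748 to 0.0811% after TNF. The antiviral genes took 0.343 to 0.368% and 0.474 to 0.479% untreated, and 2.60 to 3.00% and 0.573 to 0.602% after TNF. Cxcl10 changed by 8.00 in Lyz2cre and 2.61 in Klf6fl/fl:Lyz2cre cells on the log2 scale, a difference of 5.39 (standard error 0.192, limma, adjusted p = 8.45e-15). The difference was 5.09 for Gbp5, 4.00 for Vcam1, 3.96 for Ifit1 and 3.21 for Cdkn1a (standard errors 0.183, 0.104, 0.0650 and 0.0721). Part of such a difference can lie in the untreated cells. On counts normalized over the 12 libraries, untreated means in Lyz2cre and Klf6fl/fl:Lyz2cre cells were 68.6 and 168 for Gbp5 and 1066 and 2060 for Cdkn1a. They were 634 and 803 for Ifit1, 380 and 266 for Vcam1 and 110 and 101 for Cxcl10.

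Of 18 NF-kB subunits and inhibitors 12 differed, 9 of them more positive in Lyz2cre cells, with medians of 2.06 and 1.57. Nfkbia changed by 3.46 and 3.48, a difference of -0.02 with a standard error of 0.0686 that did not pass the test (limma, adjusted p = 0.825), and Traf1 by 5.29 and 5.21, which did not pass either (standard error 0.121, limma, adjusted p = 0.643). A miss of the test does not show equal responses. The difference was 1.61 for Tnf and 0.65 for Tnfaip3 (standard errors 0.118 and 0.0652). Mrc1 fell further in Lyz2cre cells, a difference of -2.10 on the log2 scale (standard error 0.103). On counts normalized over the 12 libraries it was at 24896 ± 266 in untreated Lyz2cre and 7549 ± 1071 in untreated Klf6fl/fl:Lyz2cre cells, and at 827 ± 64.7 and 1069 ± 60.1 after TNF, so the genotypes were farther apart untreated than after TNF. Stromal markers took 0.373 to 0.396% of the reads in untreated and 0.0270 to 0.0315% in TNF-treated Klf6fl/fl:Lyz2cre libraries, above the shares in Lyz2cre libraries, and their part in these differences was not tested.

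**Figure D5:**
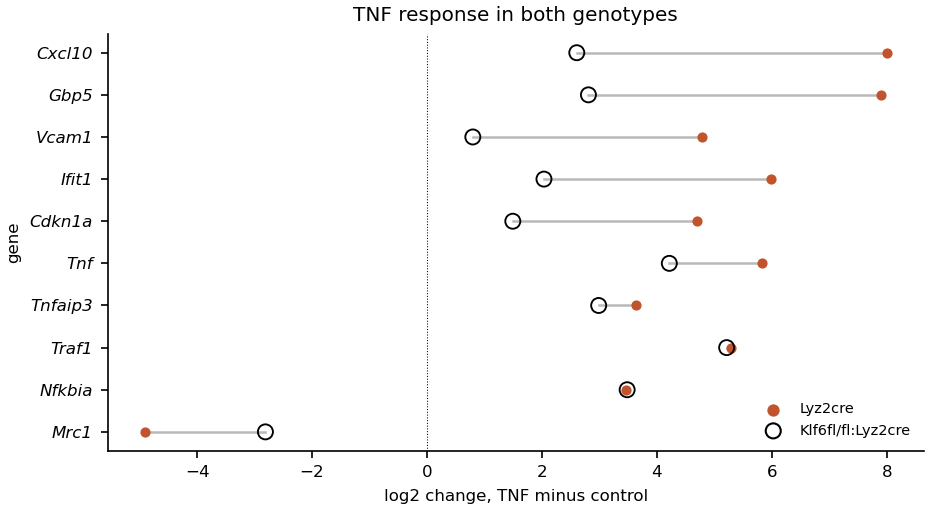
Log2 change with TNF (horizontal axis) of 10 genes (vertical axis) in Lyz2cre cells (filled circles) and Klf6fl/fl:Lyz2cre cells (open circles), from the fit over 12 libraries and without error bars. The circles are farthest apart for Cxcl10, at 8.00 and 2.61, and lie on each other for Nfkbia, at 3.46 and 3.48.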

How the data were processed

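Per the labels' protocols, 150 ng of RNA from the High Pure kit went into TruSeq Stranded Total RNA libraries with Ribo-Zero Gold. The submitters' processing notes name Cufflinks, GRCm39 and mm10 without roles, and no aligner or counter is given in the sources used here. The deposited values are a signal per gene that behaves as read counts divided by a size factor made within each of 2 tables, of untreated and of TNF libraries. Reads were recovered as value over the column's step, whole within 0.001, and the tables list genes with at least 2 reads over their 6 libraries. The recovered counts of the 6 libraries were scaled jointly with TMM (edgeR 4.0.16), and log2(normalized count + 1) was tested with limma 3.58.1 (mean-variance trend, Benjamini-Hochberg adjusted p, R 4.3.3) for genes that reached 1 CPM in at least 3 of them. The response of the genotypes was compared as an interaction contrast over 12 libraries. Alternatives were edgeR's quasi-likelihood test, DESeq2 1.42.0, other scalings, a pseudocount of 8, other filters and thresholds, a replicate block and each replicate left out. The fit was tested on simulated data in which few genes changed, evenly up and down. That test does not probe the scaling of data in which most genes changed, as here.

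Named were 30 set genes, the 10 highest and 10 lowest called changes among named genes with at least 100 normalized counts, and up to 4 of each list. Some further list members were named after their values were seen, and values of some genes are not reported here. The members and the 35 lists were chosen with earlier results of these data known, and 7 further lists after the data were seen. Promoters are those of RefSeq and gene positions those of GENCODE vM21, both on GRCm38. Exact 95% intervals and floors of 3 reads cover counting error only.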

Additional observations from a re-analysis of the deposited data

Results flagged for a closer look

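The response to TNF differed between Lyz2cre and Klf6fl/fl:Lyz2cre macrophages, by a test of the difference itself, for 8 of 10 genes named here. These 10 were chosen with earlier results of these data known, and of all genes tested 6368 of 12982 (49.1%) differed. The difference of the log2 changes, Lyz2cre minus Klf6fl/fl:Lyz2cre, was 5.39 for Cxcl10, 5.09 for Gbp5, 4.00 for Vcam1, 3.96 for Ifit1 and 3.21 for Cdkn1a. It was smaller for Tnf, at 1.61, and for Tnfaip3, at 0.65, and was -2.10 for Mrc1, whose untreated means were 24896 and 7549 normalized counts. Untreated means were lower in Lyz2cre cells for Gbp5, Ifit1, Cdkn1a and Tnf and higher for Cxcl10, Vcam1 and Tnfaip3.

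Genes listed in 1 of the deposited tables only entered no comparison. Of 1569 genes listed in the TNF table only, 33 had more than 3 reads in each of the 3 Lyz2cre TNF libraries. Kap, a kidney androgen-regulated gene, had 104, 79 and 40 reads there. Of 3028 genes listed in the untreated table only, 37 had more than 3 reads in each Lyz2cre control library. Tox2, encoding an HMG-box factor, had the most, with 339, 299 and 327 reads. Adipoq, encoding adiponectin of adipocytes, had 30, 36 and 0 reads in those libraries and Cfd, encoding adipsin, 67, 100 and 2.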

How the results depend on the processing

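Scaling moved the balance of calls most. Scaled to total reads 3086 genes were higher and 6367 lower, and with the deposited values, normalized within each table, 3047 and 6440, beside 4775 and 4508. The difference between genotypes became 2197 more positive and 4927 more negative responses when scaled to total reads, beside 3557 and 2811. With a 2-fold change required 3689 genes were called, 1564 higher and 2125 lower. EdgeR called 4604 higher and 4721 lower and DESeq2 4476 and 4488. With each replicate left out the counts were 4567 to 4753 higher and 4254 to 4477 lower, and 3302 to 3576 and 2538 to 2870 for the difference. Same-numbered control and TNF libraries did not deviate together (correlations 0.0456, -0.0112 and -0.0224), and a replicate block gave 4775 higher and 4512 lower, and 3512 and 2773 for the difference. Of 195 genes given with values, 184 could be tried under all 19 alternatives and the others not under the 5 CPM filter, and 170 kept their direction and side of the threshold under those tried. The sign of Klf2 turned to -0.0898 when scaled to total reads and -0.0998 with the deposited values, and that of Lamp1 to -0.264 and -0.274. The cause was not tested. Depth limits genes with a few reads in a group, such as Ifnb1, Cxcl11 and Mpo, and p-values rest on 3 libraries a group.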
